A study of Mus musculus with 9 samples.

Results

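The acute phase serum proteins described here are serum amyloid A (Saa1, Saa2, Saa3 and Saa4), orosomucoid or alpha-1-acid glycoprotein (Orm1 and Orm2), haptoglobin (Hp), hemopexin (Hpx), lipocalin 2 (Lcn2) and the lipopolysaccharide binding protein (Lbp). Their genes were taken by symbol from a gene count table of bulk mouse liver, where 10 of 56748 genes carry these symbols, and each of the 10 passed the filter on low counts that left 13042 genes for testing. The livers came from male C57BL/6J mice aged 28 weeks kept on a high-fat diet from 8 weeks of age, for 20 weeks. For the last 4 weeks, 5 mice received formoterol, a long-acting agonist of the beta-adrenergic receptor, at 1 mg/kg by daily injection into the peritoneum, and 4 mice received its DMSO vehicle in the same way. The diet and the injections were thus common to both groups, and no group on normal chow was analysed here. Libraries are called by the animal codes of the columns, which are M46, M47, M48, M49 and M50 for formoterol and M56, M58, M59 and M60 for vehicle, with the group read from the column suffix. The direction of every difference rests on that reading.

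The liver secretes these proteins into the blood, and their genes are switched on by cytokines. Interleukin 6 acts through STAT3, and interleukin 1 and tumour necrosis factor act through NF-kB, with C/EBP transcription factors binding near many of the genes. Saa1 and Saa2 are the strongly inducible forms and travel on high-density lipoprotein. Saa4 is the form made constitutively, and Saa3 is made largely outside hepatocytes, by macrophages and adipocytes among others. Haptoglobin binds free hemoglobin, hemopexin binds free heme, lipocalin 2 captures bacterial iron carriers, and Lbp hands lipopolysaccharide to CD14 and the receptor TLR4. Orosomucoid is a carrier of drugs and small lipids.

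Promoters of 4 genes are shown because their levels, given further on, contrast. Saa1 and Saa2 are close copies that stood high in the same libraries, Saa4 is their constitutive neighbour, and Orm2 is the orosomucoid gene that stood high with Saa1 and Saa2. Each is the RefSeq window of 300 bases on GRCm38.p6, running 5′ to 3′ on the strand of the gene with 250 bases before the start of transcription. Capitals mark matches to the C/EBP letters TTGCNNAA on either strand. The windows are chr7:46742931-46743230 (minus strand) for Saa1, chr7:46751583-46751882 (plus strand) for Saa2, chr7:46732554-46732853 (minus strand) for Saa4 and chr4:63362199-63362498 (plus strand) for Orm2.
Saa1: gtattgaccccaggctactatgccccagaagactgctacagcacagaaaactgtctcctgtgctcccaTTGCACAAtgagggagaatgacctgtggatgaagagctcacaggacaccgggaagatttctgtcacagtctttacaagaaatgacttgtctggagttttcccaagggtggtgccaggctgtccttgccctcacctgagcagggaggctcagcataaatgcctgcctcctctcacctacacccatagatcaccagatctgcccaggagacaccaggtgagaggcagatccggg
Saa2: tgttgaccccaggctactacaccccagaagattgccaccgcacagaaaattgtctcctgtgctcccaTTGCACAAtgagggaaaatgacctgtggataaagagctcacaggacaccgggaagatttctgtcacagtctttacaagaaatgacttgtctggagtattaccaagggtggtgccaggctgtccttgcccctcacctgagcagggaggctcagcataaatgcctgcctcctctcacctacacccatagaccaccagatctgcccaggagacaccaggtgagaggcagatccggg
Saa4: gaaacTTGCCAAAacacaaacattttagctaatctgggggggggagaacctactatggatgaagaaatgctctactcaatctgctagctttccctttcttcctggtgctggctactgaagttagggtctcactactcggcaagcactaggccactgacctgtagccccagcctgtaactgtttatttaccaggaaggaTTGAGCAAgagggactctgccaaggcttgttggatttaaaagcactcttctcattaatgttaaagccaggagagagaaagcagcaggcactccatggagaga
Orm2: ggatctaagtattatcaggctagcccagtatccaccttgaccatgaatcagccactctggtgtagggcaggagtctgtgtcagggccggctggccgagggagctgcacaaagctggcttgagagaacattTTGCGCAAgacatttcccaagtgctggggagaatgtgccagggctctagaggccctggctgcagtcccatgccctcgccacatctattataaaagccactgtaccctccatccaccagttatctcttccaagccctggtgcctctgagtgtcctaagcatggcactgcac

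RefSeq windows were matched by symbol for 7 of the 10 genes, which leaves out Orm1, Hp and Lbp. Each of the 7 held at least 1 match to the C/EBP letters, against 10.8% of all 32851 windows of the same length in the table. The match began 182 bases before the start in Saa1 and 183 bases before it in Saa2, with the same 8 letters, TTGCACAA. The Saa1 and Saa2 windows were identical at 96.0% of aligned bases, so their matches are not separate cases among the 7. It read TTGCGCAA in Orm2, 120 bases before the start, and TTATGCAA in Saa3, 99 bases before it. Hpx held TTGCTGAA 200 bases before its start and Lcn2 held TTGCTCAA 216 bases before its start. Saa4 held 2 matches, TTGCCAAA at 245 and TTGAGCAA at 52 bases before the start. Letters are as read on the strand of the gene, so that TTATGCAA and TTGAGCAA are matches on the opposite strand. The C/EBP letters were chosen with these sequences in view, and a match is a description of the window, not a site of binding. Among other genes, 8 of 19 windows of the positive acute phase list described further on, 4 of 7 of the negative acute phase list and 2 of 8 of the hepatocyte markers held the letters. The STAT letters TTCNNNGAA (8.30% of all windows), the NF-kB motif (1.63%) and the cyclic AMP response element TGACGTCA (1.79%) had 0 matches in the 7 windows on either strand.

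**Figure D1:**
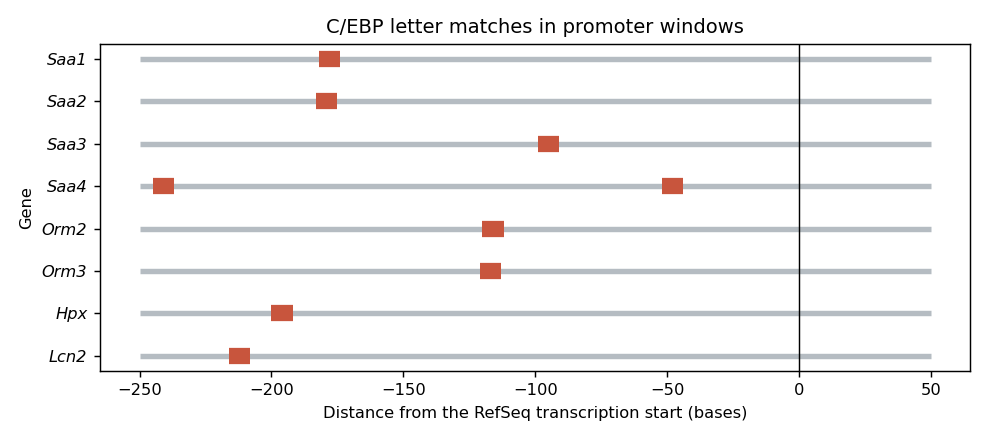
Promoter windows of 7 of the serum protein genes and of the neighbouring gene Orm3, drawn as grey lines against the distance in bases from the RefSeq start of transcription (vertical line). Red blocks are matches to the C/EBP letters; the window of Saa4 holds 2 and each of the others 1.

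By edgeR with Benjamini-Hochberg adjustment over the 13042 genes, 0 of the 10 serum protein genes passed 0.05 between formoterol and vehicle livers (smallest adjusted p = 0.188, for Orm1), against 0% of all genes. DESeq2 gave 9 of the 10 a p-value (not Lcn2) and called 1, Orm1, as higher, where it called 1.96% of genes higher. With p unadjusted and under 0.05, 2 of the 10 were higher, Orm1 and Saa4, and 0 lower, where the background was 9.03% of genes higher and 5.53% lower. For 0 of the 10 did the groups fail to overlap, where 2.45% of genes were higher and 2.38% lower without overlap. Of the 10 genes, 9 had a positive log2 fold change (formoterol minus vehicle) against 48.7% of genes, and their median was 0.53 against −0.01 over all genes tested. Without formoterol library M46 6 of the 10 were positive and the median was 0.12, with 2 higher and 1 lower (Saa3) by the unadjusted criterion, where 6.26% and 4.7% of genes were. Without M46 and vehicle library M56 together the median was 0.34, with 5 higher (Orm1, Saa4, Saa1, Saa2 and Orm2) and 0 lower, where 3.87% and 2.62% of genes were. These 2 libraries were left out together after the values were seen, as libraries in which several of these genes stood high. The count of 5 is thus a description and no support for a difference. After adjustment edgeR called 0 of the 10 there (adjusted p = 0.538 for Saa1).

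Orm1 (ENSMUSG00000039196; chromosome 4, 63262797 to 63266400 on mm39, plus strand) had 462, 349.7, 379.95 and 413 CPM (counts scaled to library size with TMM factors) in vehicle libraries M56, M58, M59 and M60. In formoterol libraries M46, M47, M48, M49 and M50 it had 1316, 631, 758, 449 and 539 CPM. Thus 4 of 5 formoterol libraries lay above every vehicle library, and M49 lay just inside the vehicle range. The means were 738 ± 343 (SD, n = 5) against 401 ± 48 CPM (SD, n = 4), a log2 fold change of 0.88 (SE 0.27, 95% interval 0.31 to 1.45). Without M46 the log2 fold change was 0.56 (SE 0.18), with an edgeR adjusted p of 0.312. Orm1 passed by DESeq2 (adjusted p = 0.0393; 1.96% of genes were higher by that test), by limma-voom with sample quality weights (adjusted p = 0.0207; 6.07% of genes higher) and by edgeR without M49 (adjusted p = 0.0307; 3.47% of genes higher).

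Saa4 (ENSMUSG00000040017; chromosome 7, 46377422 to 46382027, minus strand) had the same order of formoterol libraries. It had 112, 107, 111 and 144 CPM in M56, M58, M59 and M60. The formoterol libraries M46, M47, M48, M49 and M50 had 408, 203, 208, 103 and 172 CPM. Again 4 of 5 formoterol libraries lay above all vehicle libraries, while M49 was the lowest of the 9. The means were 219 ± 114 against 118 ± 17.2 CPM, and the log2 fold change was 0.89 (SE 0.31, interval 0.22 to 1.55, edgeR adjusted p = 0.224). Without M46 it was 0.53 (SE 0.21). Saa4 was called by limma-voom with quality weights (adjusted p = 0.0187) and by edgeR without M49 (adjusted p = 0.0259), and not by DESeq2.

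Saa1 (ENSMUSG00000074115; chromosome 7, 46389921 to 46392404, minus strand) varied widely within both groups. The vehicle libraries M58, M59 and M60 had 31.1, 41.8 and 29.9 CPM, and M56 had 130.4. The formoterol libraries M47, M48, M49 and M50 had 101, 104, 55.2 and 209 CPM, and M46 had 805. Every formoterol library was above M58, M59 and M60, but only M46 and M50 were above M56. The means were 255 ± 313 and 58.3 ± 48.4 CPM, with a log2 fold change of 2.13 (SE 0.96, interval −0.10 to 4.36, edgeR adjusted p = 0.368). The log2 fold change was 0.99 (SE 0.64) without M46, 2.89 (SE 1.04) without M56 and 1.78 (SE 0.39) without both, and edgeR called Saa1 in none of the 3 (adjusted p from 0.523 to 0.64).

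Saa2 (ENSMUSG00000057465; chromosome 7, 46401214 to 46403737, plus strand) repeated this pattern at a lower level. It had 19.5, 27.1 and 21.2 CPM in M58, M59 and M60 and 129 in M56. It had 49.97, 34.6, 58.8 and 136 CPM in M47, M48, M49 and M50, and 444 in M46. As for Saa1, M46, M50 and M56 were the 3 highest libraries in that order. The log2 fold change was 1.55 (SE 1.01, interval −0.80 to 3.91, edgeR adjusted p = 0.529). It was 0.48 (SE 0.80) without M46, 2.68 (SE 1.01) without M56 and 1.63 (SE 0.45) without both, and edgeR called Saa2 in none of the 3 (adjusted p from 0.525 to 0.882). The ratio of Saa1 to Saa2 CPM within a library was not fixed: it was 0.94 in M49, 1.01 in M56, 1.81 in M46 and 3.01 in M48. Saa1 and Saa2 transcripts (GENCODE vM21) were identical at 94.4% of aligned bases and shared 13.2% of their windows of 50 bases, so reads may be split between them. Their sum ran from 50.6 to 68.9 CPM in M58, M59 and M60, was 259 in M56, lay between 114 and 345 in 4 formoterol libraries and reached 1249.6 in M46.

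Saa3 (ENSMUSG00000040026; chromosome 7, 46361422 to 46365124, minus strand) was the serum protein gene with a negative log2 fold change, −0.37 (SE 0.51, interval −1.48 to 0.74, edgeR adjusted p = 0.786). Its counts were low, from 37 to 261 per library. It had 15.2, 4.94, 6.88 and 5.12 CPM in M56, M58, M59 and M60, and 14.1, 2.62, 7.46, 3.31 and 4.00 CPM in M46, M47, M48, M49 and M50. The highest library was the vehicle library M56, with M46 next, and the other 7 overlapped. The log2 fold change was 0.14 without M56 and −0.90 without M46. The 4 Saa genes lie within 42.3 kb of chromosome 7, in the order Saa3, Saa4, Saa1 and Saa2.

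**Figure D2:**
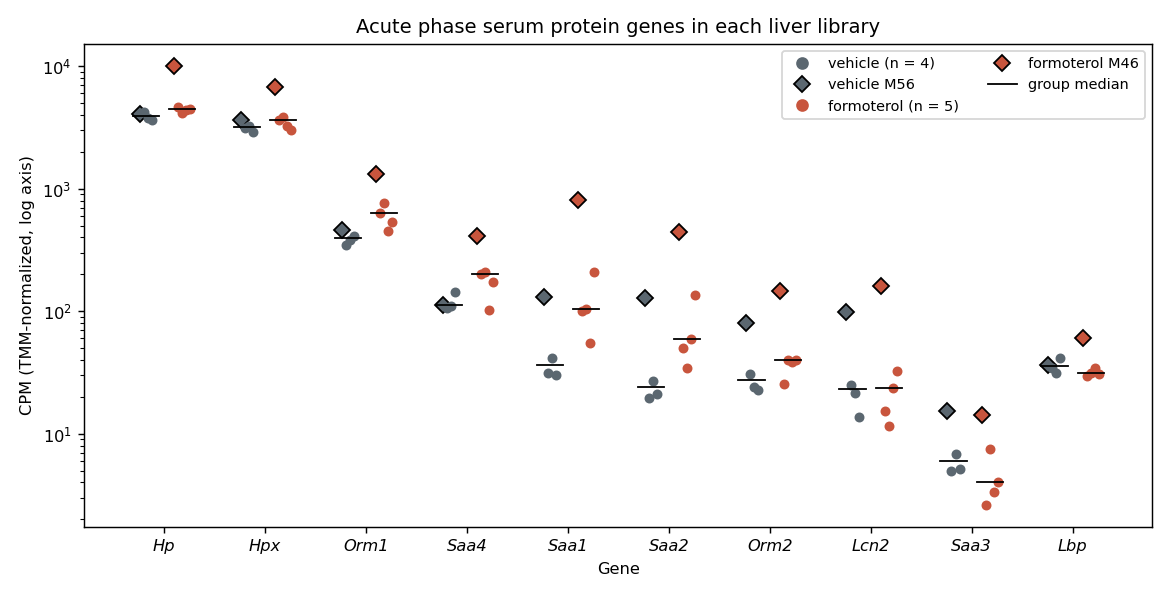
CPM on a log axis for each serum protein gene, with grey points for the 4 vehicle and red points for the 5 formoterol libraries, diamonds for vehicle M56 and formoterol M46, and black lines at group medians. M46 is the highest point for each gene but Saa3; M56 stands far above the other vehicle libraries for Saa1, Saa2, Orm2, Lcn2 and Saa3.

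Orm2 (ENSMUSG00000061540; chromosome 4, 63280686 to 63284115, plus strand) went with Saa1 and Saa2 in its high libraries. It had 30.8, 23.9 and 22.5 CPM in M58, M59 and M60 and 80.4 in M56. It had 25.6, 39.8, 38.6 and 39.8 CPM in M47, M48, M49 and M50, and 146 in M46. Outside M46 and M56, 3 of 4 formoterol libraries were above the 3 vehicle libraries. The log2 fold change was 0.55 (SE 0.62, interval −0.87 to 1.98, edgeR adjusted p = 0.736), and it was −0.15 without M46, 1.17 without M56 and 0.49 without both. Orm1, Orm3 and Orm2 lie in this order within 21.3 kb, and Orm1 and Orm2 transcripts were identical at 91.0% of bases and shared 20.4% of windows of 50 bases, so their values are uncertain in the same way. The ratio of Orm1 to Orm2 CPM was 5.74 in M56 and 9.03 in M46, and from 11.4 to 24.6 in the other 7 libraries.

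Hp (ENSMUSG00000031722; chromosome 8, 110301760 to 110305804, minus strand) was the most abundant of the 10 per kilobase of gene length. It had 4038, 4239.8, 3783 and 3612 CPM in M56, M58, M59 and M60, and 4624, 4168, 4409 and 4449 CPM in M47, M48, M49 and M50. M46 had 10043 CPM, 2.17 times the next formoterol library. As for Orm1 and Saa4, 4 of 5 formoterol libraries lay above every vehicle library, while M48 lay inside the vehicle range. The means were 5538 ± 2523 against 3918 ± 277 CPM (log2 fold change 0.50, SE 0.25, interval −0.03 to 1.03, edgeR adjusted p = 0.378). Without M46 the formoterol mean was 4412 ± 188 CPM (SD, n = 4) and the log2 fold change 0.16 (SE 0.15).

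Hpx (ENSMUSG00000030895; chromosome 7, 105240820 to 105249344, minus strand) was, like Hp, highest in M46. It had 3606, 3098, 3227 and 2894 CPM in M56, M58, M59 and M60. It had 3663, 3832, 3249 and 3004 CPM in M47, M48, M49 and M50, and 6777 in M46. The other 4 formoterol libraries overlapped the vehicle libraries, although M47 and M48 were slightly above each of them. Its log2 fold change was 0.36 (SE 0.23, interval −0.12 to 0.84, edgeR adjusted p = 0.491), and 0.09 (SE 0.16) without M46.

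Lcn2 (ENSMUSG00000026822; chromosome 2, 32274645 to 32278264, minus strand) was high in 1 library of each group. It had 25.0, 21.6 and 13.7 CPM in M58, M59 and M60 and 98.1 in M56. It had 15.4, 11.5, 23.6 and 32.2 CPM in M47, M48, M49 and M50 and 160.4 in M46. The remaining 7 libraries overlapped. Its log2 fold change was 0.29 (SE 0.98, interval −1.99 to 2.57, edgeR adjusted p = 0.921), −0.96 without M46, 1.27 without M56 and 0.05 (SE 0.32) without both.

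Lbp (ENSMUSG00000016024; chromosome 2, 158148413 to 158174772, plus strand) had the smallest ratio of highest to lowest library. It had 36.6, 34.2, 31.2 and 41.7 CPM in M56, M58, M59 and M60, and 60.2, 29.8, 31.4, 34.2 and 30.6 CPM in M46, M47, M48, M49 and M50. M46 was again above all others, and the remaining formoterol libraries lay below the middle of the vehicle range. Its log2 fold change was 0.05 (SE 0.20, interval −0.39 to 0.49, edgeR adjusted p = 0.938) and changed sign without M46 (−0.20, SE 0.14) and under library-total scaling (−0.11).

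**Figure D3:**
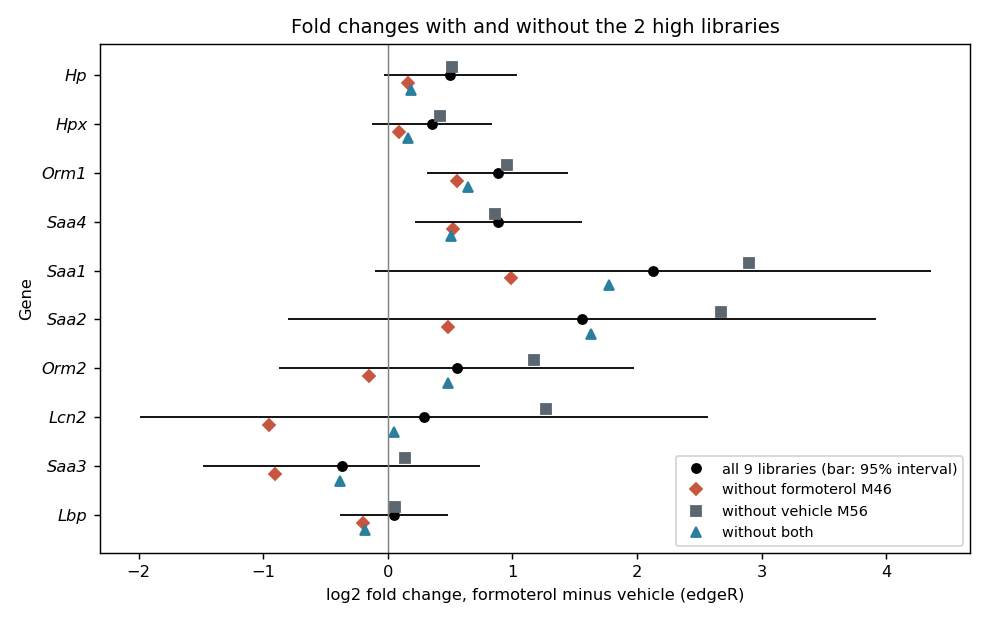
Log2 fold change of formoterol over vehicle by edgeR for each serum protein gene, with black points and 95% intervals for all 9 libraries, red diamonds without M46, grey squares without M56 and blue triangles without both. The diamonds of Orm1 and Saa4 are at 0.56 and 0.53, and those of Orm2, Lcn2, Saa3 and Lbp lie below 0.

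M46 was the highest of the 9 libraries for 9 of the 10 genes and second for Saa3, where it was highest for 18.3% of all genes tested. It exceeded the next formoterol library by 1.74 times (Orm1) to 4.98 times (Lcn2). The 10 genes together took 1.87% of the counts of M46 and 0.72% to 0.98% of those of the other libraries. M56 was the highest vehicle library for 7 of the 10, against 22.5% of all genes, and M46 the highest formoterol library for 10 of 10, against 22.8%. The genes divided by how M56 stood, a division made after the values were seen. For Saa1, Saa2, Saa3, Orm2 and Lcn2 it exceeded the next vehicle library by 2.21 to 4.75 times, while for Saa4, Orm1, Hp, Hpx and Lbp it was 0.777 to 1.12 times the highest of the others.

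**Figure D4:**
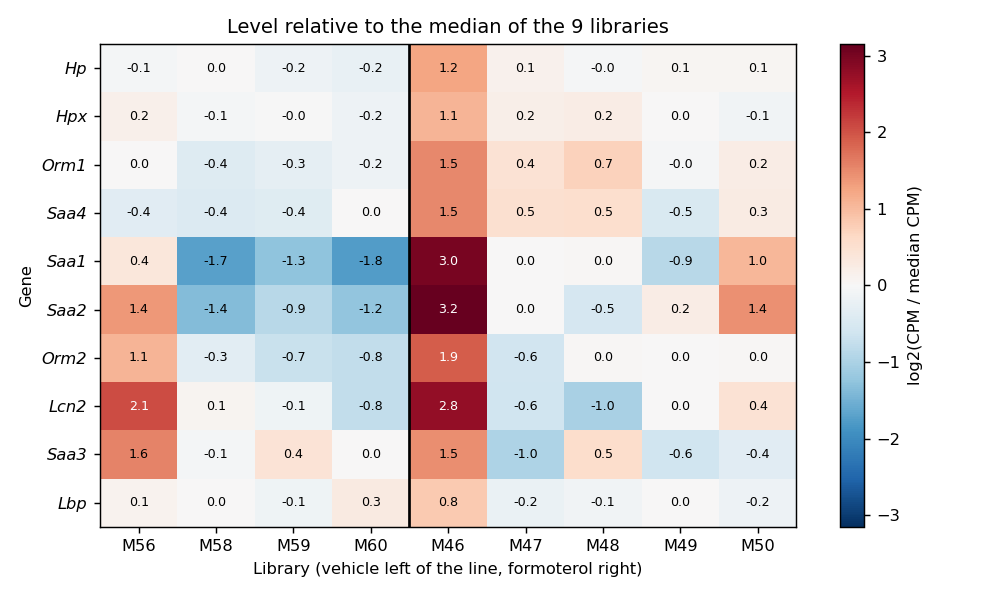
Log2 ratio of CPM to the median of the 9 libraries for each serum protein gene (rows) and library (columns), with vehicle left and formoterol right of the line, red above and blue below the median. M46 is the highest cell of each row but Saa3, where M56 is, and M56 is the highest vehicle cell for 7 of the 10 genes.

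Libraries held from 12336665 to 20339665 counts, and M46, with 13239166, was the second smallest. M46 also had the lowest mitochondrial share, 16.4% of counts against 18.1% to 38.6% in the others. Summed CPM of monocyte and macrophage, Kupffer, stellate, endothelial, cholangiocyte and B cell marker lists were lowest in M46 (88.8, 52.0, 83.6, 36.3, 70.5 and 15.6 CPM). In the other 8 libraries they ran from 114 to 329, 68.9 to 127, 197 to 423, 73.2 to 119, 71.7 to 258 and 21.1 to 71.6 CPM. Among vehicle libraries M56 had the highest sum of each of these 6 lists. Spp1 is in both the monocyte and macrophage list and the cholangiocyte list, so these sums are not separate. At 62.6 CPM it made most of both sums in M46. Without Spp1 the cholangiocyte sum was lower in M48 than in M46. Hepatocyte markers, whose 10 genes were all tested, summed to 134467 CPM in M46, within the 104108 to 145639 of the other formoterol libraries and above the 89334 to 102692 of the vehicle libraries. Most of that sum in M46 was Alb, at 89981 CPM. Of the 10 markers, 4 were higher and 1 lower by the unadjusted criterion, where 9.03% and 5.53% of all genes were. The lower one, Cyp2f2, had 155 ± 33.2 against 247 ± 65.9 CPM, with M46 the lowest of the 9 libraries at 103.8 CPM. The part of these differences in the levels above was not tested, and in bulk tissue fewer cells of a type and less RNA per cell cannot be told apart. Neutrophils also make Lcn2, and the 12 neutrophil markers summed to 2.12 CPM in M46, 4.72 in M56 and 1.17 to 3.38 in the others, with Ly6g and Mpo at 0 counts in all 9. Adipocytes make Saa3, Lcn2 and haptoglobin too. Of the 6 adipocyte markers, Plin1 was at 0 in all libraries and Adipoq at most at 0.39 CPM. The list's sum, 36.5 to 115 CPM in formoterol and 14.8 to 31.6 in vehicle libraries, held Cfd at 75.4 ± 32.6 against 11.7 ± 5.89 CPM and Fabp4 at 8.04 ± 4.46 against 8.82 ± 2.09 CPM. Their part in the levels of Saa3, Lcn2 and Hp was not tested. T and NK cell markers summed to 1.75 to 3.37 CPM and erythroid markers to 183 to 583 CPM.

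Per kilobase of the gene length in the table, vehicle livers held 2439.7 ± 172 CPM of Hp, 2139 ± 200.1 of Hpx and 518 ± 61.9 of Orm1. Hp and Hpx overlapped in range, and Orm1 was below both and above the rest. Saa4 (56.5 ± 8.21), Orm2 (50.8 ± 35.6), Saa1 (23.5 ± 19.5), Saa2 (19.5 ± 21.2), Lcn2 (15.1 ± 14.97) and Lbp (7.44 ± 0.918) each overlapped the next in that order. Saa3 was the lowest at 3.08 ± 1.86 CPM per kilobase, below the range of Lbp. In formoterol livers the order of means was the same except that Saa1 (102.9) passed Orm2 (74.7). The table's lengths merge all transcripts of a gene, 2478 bases for Saa1 where its main transcript has 609. On that transcript's length Saa1 stood at 95.7 CPM per kilobase in vehicle livers, above Saa4 at 56.5, so the order below Orm1 depends on the length used.

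Other genes of the acute phase response were taken from fixed lists. Of 23 other positive acute phase genes, 21 were tested. At an unadjusted p under 0.05, 7 were higher and 0 lower, where 9.03% and 5.53% of all genes were. After adjustment edgeR called 0 of them, and the median log2 fold change was 0.51. Without M46 the median was 0.21, with 2 higher and 1 lower, where 6.26% of genes were higher and 4.7% lower. C9, a component of the complement pore, had 510.2 ± 142 against 337 ± 34.8 CPM. Fgb, the beta chain of fibrinogen, had 2661 ± 873 against 1838 ± 146 CPM. Lrg1, a secreted leucine-rich glycoprotein, had 596, 191, 119.6, 104 and 185 CPM in M46, M47, M48, M49 and M50 and 119, 97.9, 91.1 and 99.9 in M56, M58, M59 and M60. C4b had 599 ± 169 against 438 ± 37.4 CPM, and its close copy in the genome makes its values uncertain. M46 was the highest of the 9 libraries for 13 of these 21 genes, against 18.3% of all genes tested. Picked out after their values were seen, Fgl1, a hepatocyte-secreted fibrinogen-like protein, had 2990.1 CPM in M46 and 273 to 743 in the other formoterol libraries, and the metallothionein Mt1 had 167 CPM in M46 and 9.53 to 25.1 in the other 8. Serpina3n, fibrinogen Fga and ceruloplasmin Cp, also picked out so, had log2 fold changes of −0.29, −0.09 and −0.09.

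Of 10 genes known to go down in an acute phase response, 9 were analysed. Each of the 9 had a positive log2 fold change (median 0.35), against 48.7% of all genes. By the unadjusted criterion 3 were higher and 0 were lower, where 9.03% and 5.53% of all genes were. Apoa1, whose protein is the chief apolipoprotein of high-density lipoprotein, had 15874 ± 2779 against 8933 ± 1276 CPM (log2 fold change 0.83, SE 0.19), with an adjusted p of 0.159 by edgeR and 0.00134 by DESeq2. Rbp4, the retinol carrier, had 3545 ± 457 against 2628 ± 330.2 CPM, and Apom, an apolipoprotein, 25.1 ± 4.33 against 17.7 ± 6.32 CPM.

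Inducing cytokines were scarce in this tissue. Of 10 listed, 2 passed the filter, and their sum was 1.23 to 5.02 CPM in formoterol and 3.43 to 6.81 CPM in vehicle libraries over the whole list. Il6 was at 0 in each library but M58 (0.08 CPM), Il22 and Osm were at 0 in all 9, and Il1b and Tnf stayed at or below 1.27 and 0.58 CPM. Il1a, interleukin 1 alpha, had 1.33 ± 0.795 against 2.94 ± 0.38 CPM (log2 fold change −1.12, SE 0.44, edgeR adjusted p = 0.26). M46, the library with the highest serum protein levels, had 0.41 CPM of Il1a, the lowest of the 9. In a library of 13239166 counts that level is few reads, so the rank is imprecise.

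Of 19 cytokine receptors and signal transducers, 18 were tested (median −0.08). By the same unadjusted criterion 3 were higher and 2 were lower, where 9.03% and 5.53% of all genes were. Both chains of the interleukin 1 receptor were among the 3. Il1rap, the accessory chain, had 379.6, 273, 333, 153 and 207 CPM in M46, M47, M48, M49 and M50, and 150.5, 164, 149 and 157 CPM in M56, M58, M59 and M60. Thus 4 of 5 formoterol libraries were above all vehicle libraries, as for Orm1, Saa4 and Hp. The log2 fold change of Il1rap was 0.79 (SE 0.22), with an adjusted p of 0.173 by edgeR and 0.035 by DESeq2. Il1r1, the binding chain, had 32.5 ± 15.8 against 18.6 ± 3.16 CPM, with M46 at 59.5 CPM. Lifr, a receptor chain of the interleukin 6 family, had 82.4 ± 23.2 against 52.4 ± 7.33 CPM, while the kinase Tyk2 had 8.07 ± 1.26 against 11.6 ± 1.53 CPM. Stat3, given because its pathway drives these genes, had 53.6 CPM in M46, 43.2 in M47 and 26.8 to 35.4 in the other 7.

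Among 11 transcription factors, 1 was higher by that criterion, a count near the share of 9.03% of all genes. Nr3c1, the glucocorticoid receptor, had 62.6 ± 12.3 against 48.9 ± 4.98 CPM. The C/EBP genes, given because their letters were searched, overlapped between the groups: Cebpa had 362 ± 30.4 against 341 ± 40.6 CPM. Cebpb had 45.98 ± 13.5 against 40.4 ± 10.03 CPM and Cebpd 2.95 ± 1.15 against 2.76 ± 0.825 CPM. Of 11 feedback inhibitors 9 were tested, with 1 higher, again near that share of all genes. It was Socs2, an inhibitor in the growth hormone and cytokine pathways, with 14.6 ± 8.02 against 5.44 ± 3.07 CPM (DESeq2 adjusted p = 0.0289). Socs3, the inhibitor that STAT3 induces, had 6.61 ± 3.41 against 4.41 ± 1.80 CPM and overlapped.

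Partners and clearance receptors of the serum proteins gave 2 higher and 1 lower of 12 tested among 15, where 9.03% and 5.53% of all genes were. Asgr1 and Asgr2, chains of the receptor that clears glycoproteins such as orosomucoid once they lose sialic acid, had 593 ± 169 against 399 ± 96.0 CPM and 193 ± 33.7 against 153 ± 17.0 CPM. Cd36, a scavenger receptor that also binds serum amyloid A, had 148 ± 27.0 against 207 ± 26.3 CPM. Of 7 genes that respond to glucocorticoids, 1 was higher, where 9.03% of all genes were. It was Tsc22d3, with 73.9 ± 13.5 against 51.3 ± 8.35 CPM (log2 fold change 0.53, SE 0.17, edgeR adjusted p = 0.194).

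**Figure D5:**
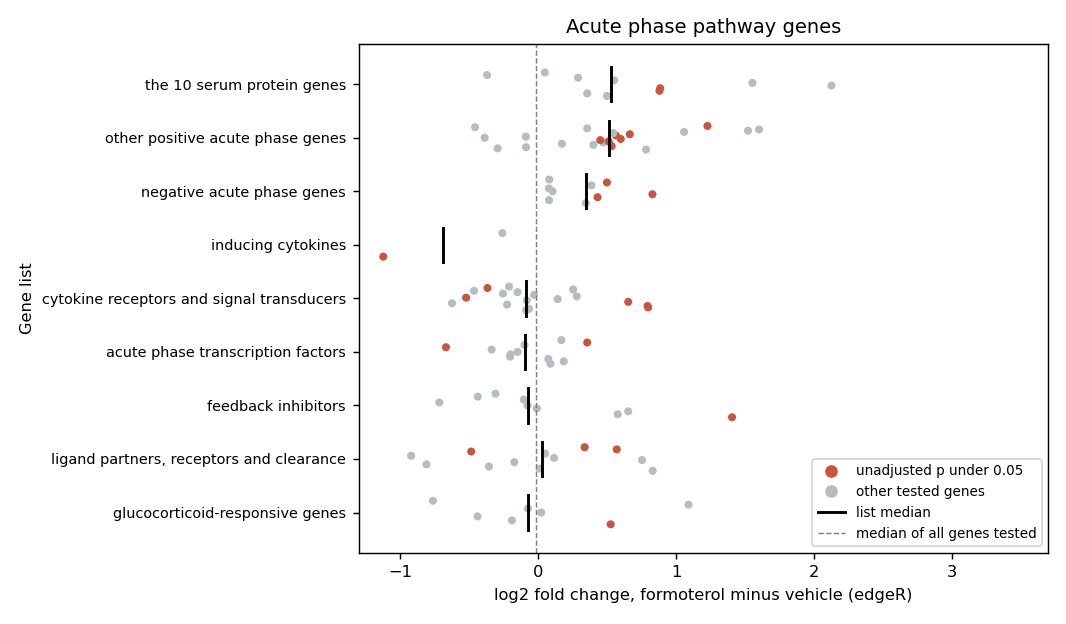
Log2 fold change of each tested gene by list, with red points at an unadjusted p under 0.05, black bars at list medians and a dashed line at the median of all genes tested (−0.01). The medians of the serum protein genes (0.53) and the other positive acute phase genes (0.51) lie right of it, and that of the 2 inducing cytokines tested lies left.

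Among 6135 other genes with a mean of at least 10 CPM, those most like Saa1, Orm1 and Hp over the 9 libraries were listed by Pearson's r of log2 CPM, as a description. For Orm1 these were the kininogen gene Kng1 (r = 0.97), Il1r1 (0.97) and the proteasome gene Psma4 (0.96), and r was 0.96, 0.90 and 0.94 without M46. For Saa1 they were Mmachc (0.94), which processes vitamin B12, the complement gene Hc (0.93) and the plasma glycoprotein gene Hrg (0.92), and r was 0.91, 0.81 and 0.79 without M46. For Hp they were Ankib1, Mrps18a and Lrg1 (0.94 to 0.95), and r was 0.65 to 0.70 without M46. The 9 points share library depth and the 2 groups, and these genes were picked as the highest, so no test is given.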

How the data were processed

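Poly(A) RNA of 9 livers was sequenced. The authors deposited raw read counts per Ensembl gene, 1 column per library. Alignment used HISAT2 2.0.5 and mm39, per the submitters' processing notes, which also name DESeq2. Counting program, strand setting and annotation were not given in the sources used here. Groups follow the column suffixes (HF formoterol, HD vehicle), with animal codes taken to mark separate mice. Without that, p-values cover technical spread alone.

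Counts were filtered with filterByExpr (minimum count 10, minimum total 15) and tested with edgeR 4.0.16 (R 4.3.3) by the robust quasi-likelihood test with TMM factors and Benjamini-Hochberg adjustment over 13042 genes, at a threshold of 0.05. Log2 fold changes are formoterol minus vehicle, with SE and 95% interval from the fit, and CPM are given as mean ± SD over 5 and 4 libraries. Alternatives were other scalings, no filter, DESeq2 1.42.0, limma-voom with and without sample quality weights (limma 3.58.1), and leaving out libraries. On simulated counts of this comparison (13042 genes, 200 changed) edgeR recovered 42% of 2-fold and 78% of 4-fold changes. Those counts were drawn gene by gene, with no library that departs in many genes at once as M46 does. The shares may therefore not hold for the genes reported here.

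The members and lists were chosen with earlier results of these data known. All 10 members are named, and up to 4 genes per list with the smallest unadjusted p under 0.05, and the 3 genes most like each of Saa1, Orm1 and Hp. Near-identical copies and overlapping genes may split reads. The list gene Tf was not analysed here, and 1 list gene is not reported here. Promoter sequences are from RefSeq (GRCm38.p6), which differs from the build of the counts.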

Additional observations from a re-analysis of the deposited data

Results flagged for a closer look

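A library stood apart from the rest of its group by Dixon's criterion for 8 serum protein genes, in CPM. The criterion marks about 1 in 20 groups by chance where groups are independent and values normally distributed. Here 12 of 20 groups of the serum protein genes were marked, 7 of them through formoterol library M46 and 4 through vehicle library M56. The 20 groups are the same libraries read through genes that stood high together, and CPM were not log-transformed. The count of 12 therefore cannot be weighed against that rate. The M46 values were 805 for Saa1 (next formoterol library 209), 444 for Saa2 (136), 146 for Orm2 (39.8), 10043 for Hp (4624), 6777 for Hpx (3832), 160.4 for Lcn2 (32.2) and 60.2 for Lbp (34.2). The M56 values were 130.4 for Saa1 (next vehicle library 41.8), 129 for Saa2 (27.1), 80.4 for Orm2 (30.8) and 98.1 for Lcn2 (25.0). Vehicle library M60 had 144 for Saa4 (112). Among the named list genes, M46 had 596 CPM of Lrg1 (191), and vehicle library M58 had 56.4 CPM of Nr3c1 (46.6).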

How the results depend on the processing

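Over 18 alternatives, edgeR's count of genes called, 0 with all 9 libraries (1899 at an unadjusted p under 0.05), was 263 without a filter on low counts, 314 by DESeq2, 1374 by limma-voom with sample quality weights, and 0 to 702 with any 1 library left out (702 without M49, 4 without M60). The count at an unadjusted p under 0.05 was 3124 without a filter, 3703 by limma-voom with quality weights, 858 without M46 and M56 together (an alternative chosen after seeing the data), and 1203 (without M56) to 2981 (without M49) with any 1 library left out. Orm1, Saa1, Saa2, Saa4, Hp and Hpx kept a positive log2 fold change in each of the 18. With any 1 library left out, log2 fold changes ran from −0.90 to 0.14 (without M56) for Saa3, from −0.15 (without M46) to 1.17 for Orm2, from −0.96 (without M46) to 1.27 for Lcn2 and from −0.20 (without M46; −0.011 without M59) to 0.131 for Lbp. The sign also turned for Lcn2 by limma-voom (−0.020) and with quality weights (−0.50), and for Lbp without M46 and M56 (−0.18), under library-total scaling (−0.11), by limma-voom (−0.0044) and with quality weights (−0.10). Library-total scaling moved the median of all genes from −0.01 to −0.16 and the genes at an unadjusted p under 0.05 from 1178 higher and 721 lower to 467 higher and 1292 lower; upper-quartile scaling gave 991 and 881. The cause of these changes was not tested. Of the serum protein genes, Orm1 was called in 3 alternatives and Saa4 in 2. No paired analysis was possible because the columns carry animal codes and no replicate number. Counts of Saa3, 37 to 261 per library, limit its precision.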
